A study of Mus musculus with 2 samples.

Results

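The TEC family and SYK kinases were examined with the phospholipases they act on, in RNA-seq of leukemic stem cells (LSCs) of mice with BCR-ABL-driven chronic myeloid leukemia (CML). The 8 genes were taken by symbol from the 23284 gene symbols listed for each library, namely the TEC family genes Tec, Btk, Bmx and Txk, the SYK family genes Syk and Zap70, and the phospholipase C-gamma genes Plcg1 and Plcg2. Of the 8 genes, 7 had at least 0.1 FPKM in both libraries, and Bmx was under this floor in the WT library.

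The data were 2 libraries, 1 from WT and 1 from STAP-1 KO LSCs. LSK cells (lineage-negative, Sca-1+ and c-Kit+) of C57BL/6J donors, either wild type or with a targeted disruption of the gene for the adapter STAP-1, were transduced with a human BCR-ABL retrovirus that also carries GFP and transplanted into irradiated congenic recipients. GFP+ CD45.2+ LSK cells were sorted from both kinds of recipient on day 11 following the primary bone marrow transplantation (BMT), and mice of 8 to 14 weeks were used. Both groups thus carried the same BCR-ABL vector and differed by label only in the STAP-1 genotype. The number of mice behind each library was not given in the sources used here, and with 1 library per genotype no difference could be checked against a spread between replicates and p-values are not given.

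TEC kinases are cytoplasmic tyrosine kinases with SH2 and kinase domains, and most have an SH3 domain. Most of them also have a pleckstrin homology domain that binds the lipid PIP3 made by PI3 kinase, whereas Txk has a cysteine-rich stretch in its place. In immune cells, SRC family kinases phosphorylate receptor subunits, SYK or ZAP-70 binds these subunits and phosphorylates adapters such as LAT and SLP-76, and TEC kinases then activate phospholipase C-gamma, which makes the calcium-releasing messenger IP3 and diacylglycerol. Btk is best known from B cells, mast cells and macrophages, Txk from T cells, Bmx from endothelial and myeloid cells, and Zap70 from T and NK cells. STAP-1 was first found as a substrate of Tec, which gives the question for these genes, namely whether Tec and its relatives differ in LSCs that lack STAP-1.

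Values are FPKM (mapped fragments scaled to the length of the exons and to the size of the library), so levels of different genes were compared within a library. Ratios between the libraries varied with transcript length, as described below. Such comparisons are therefore less certain for transcripts of unlike length. The files state no read totals, but many low values fell on steps worth 1 read. From these steps the effective depth was 7520000 reads for WT and 10480000 for STAP-1 KO LSCs. An estimate of reads was made for each gene with these depths and the longest coding transcript, and intervals given below are 95% intervals from these reads. They cover counting error only and neither the differences between mice, sorts and library preparations nor the choice of transcript. Differences are given as the fold between the libraries without a pseudocount, or as log2((STAP-1 KO + 0.1)/(WT + 0.1)).

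The targeted gene Stap1 had 61.95 FPKM in WT LSCs against 0.309 FPKM in STAP-1 KO LSCs. Over all genes, ratios became lower with transcript length. The median log2 ratio was 0.51 in the shortest and -1.01 in the longest of 20 length bins, so ratios are also given after adjustment for the length and GC content of the transcript. Markers of cell types also differed between the libraries. Of 13 mast cell and basophil markers that averaged 1 FPKM or more, 12 were lower by 2-fold or more in STAP-1 KO LSCs, and the 14 listed markers summed to 52860 FPKM in WT LSCs against 5385 FPKM in STAP-1 KO LSCs. The 6 listed markers of primary-granule myeloid cells were all at least 2-fold higher, with sums of 565 and 4627 FPKM. Defining B cell genes (Pax5 and Ebf1) were listed at 0 FPKM in both libraries, whereas Cd79b, which is also on the B cell list, had 3.10 and 17.8 FPKM. Among T cell genes, Cd3d had 0.713 and 0.681 FPKM, Cd3e 0.869 and 1.09 FPKM, and Cd3g 1.80 and 5.04 FPKM. The part of the mast cell and granule marker differences in any result below was not tested, and in such bulk samples fewer cells of a type and less RNA per cell cannot be told apart. The sorting antigen gene Kit had 468 and 30.1 FPKM, Ly6a (Sca-1) had 285 and 106 FPKM, and the progenitor marker Cd34 had 281 and 194 FPKM. The listed markers of stem and progenitor cells summed to 1091 and 380 FPKM, of T cells to 17.4 and 53.7 FPKM, of B cells to 4.28 and 19.3 FPKM, of NK cells to 9667 and 2312 FPKM and of megakaryocytes to 218 and 139 FPKM, in WT and STAP-1 KO LSCs in this order. Of 7 stem and progenitor markers that averaged 1 FPKM or more, 3 were lower (Kit, Ly6a and Mecom) and 4 were within the cut-off (Cd34, Procr, Meis1 and Flt3), with a median log2 ratio of -0.54. Among all genes at that level 22.6% were lower and 11.8% higher. Kit is also on the mast cell list, and without it the stem and progenitor markers summed to 623 and 349.8 FPKM. The NK sum was nearly all Gzmb, at 9642 and 2302 FPKM. Of 7 megakaryocyte markers that averaged 1 FPKM or more, 2 were lower, Itga2b and Gp1ba, and 1, Ppbp, was higher, with a median log2 ratio of 0.10.

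In the GRCm38 genome, Tec (chr5:72755716-72868483) and Txk (chr5:72695978-72752777) are neighbors on the minus strand of chromosome 5, where 2938 bases separate the end of Tec from the start of Txk. They are on the same chromosome as Stap1, which begins 13.2 megabases beyond Tec. Btk (chrX:134542336-134583570) and Bmx (chrX:164192842-164258193) are both on the minus strand of chromosome X. Syk (chr13:52583173-52648792), Zap70 (chr1:36761798-36782818), Plcg1 (chr2:160731300-160775760) and Plcg2 (chr8:117498291-117635142) are on the plus strand. In GENCODE M21, the exons of the longest coding transcript share no base with exons of another gene in 7 of the 8 genes. In Plcg1, 525 of 5107 exon bases (10.3%) overlap exons of Zhx3 and Gm27206 on the other strand. Zhx3 had 1.59 FPKM in WT LSCs against 0.201 FPKM in STAP-1 KO LSCs, and reads from the shared bases cannot be told apart where strand is not kept.

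The sequences just upstream of the start sites are shown for the neighboring pair Tec and Txk and for the paralogs Plcg1 and Plcg2, since the members of each pair differed in level or in ratio. Each is RefSeq sequence of GRCm38.p6 from base 250 to base 51 before the start site farthest upstream, read 5′ to 3′ on the strand of the gene. Capitals mark a match to the GATA motif.

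Tec (chr5:72868499-72868698, minus strand): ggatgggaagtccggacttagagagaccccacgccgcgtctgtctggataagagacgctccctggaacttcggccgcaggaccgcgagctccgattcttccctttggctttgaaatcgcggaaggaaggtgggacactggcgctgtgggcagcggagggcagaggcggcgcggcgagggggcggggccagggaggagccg

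Txk (chr5:72752828-72753027, minus strand): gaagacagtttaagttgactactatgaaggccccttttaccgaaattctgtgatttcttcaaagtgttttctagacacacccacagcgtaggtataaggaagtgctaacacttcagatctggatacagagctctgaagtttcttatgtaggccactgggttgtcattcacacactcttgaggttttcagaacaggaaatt

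Plcg1 (chr2:160731060-160731259, plus strand): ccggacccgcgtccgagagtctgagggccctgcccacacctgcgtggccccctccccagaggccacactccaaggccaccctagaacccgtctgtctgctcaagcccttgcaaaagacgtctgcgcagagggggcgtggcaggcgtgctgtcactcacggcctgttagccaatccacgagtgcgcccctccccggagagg

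Plcg2 (chr8:117498025-117498224, plus strand): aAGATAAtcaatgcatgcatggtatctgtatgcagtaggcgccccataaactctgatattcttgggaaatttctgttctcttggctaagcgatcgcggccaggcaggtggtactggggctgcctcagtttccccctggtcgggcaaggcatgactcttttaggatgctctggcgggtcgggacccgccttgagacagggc

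The stretch before Tec had 67% G and C and 20 CpG sites, whereas that before Txk, its neighbor, had 41% and 2 CpG sites. The stretch before Plcg1 had 68% G and C and 14 CpG sites, and that before Plcg2 had 54.5% and 8. All 8 genes had an entry. The searched motifs, on both strands, were that of GATA factors, spelled AGATAA, in which the first base could also be T and the last base G, the ETS core GAGGAA, the RUNX core TGTGGT and the STAT palindrome TTCNNNGAA. Of the 4 stretches printed, only that of Plcg2 held a match, to GATA, which 23.1% of all 32851 such stretches of 200 bases also held. Of the other 4, Bmx held a GATA match at 2 places and Zap70 an ETS match, which 18.8% of all stretches held. No member held a RUNX or STAT match, against 11.6% and 5.76% of all stretches. A match is a description of the letters and not a binding site.

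At the 2-fold cut-off, with at least 0.1 FPKM in both libraries, 4 of the 7 genes that could be compared were lower in STAP-1 KO LSCs (Tec, Txk, Zap70 and Plcg1) and 0 were higher. Among all 12507 genes compared in this way, 22.9% were at least 2-fold lower and 12.3% at least 2-fold higher. When the libraries were rescaled by the median ratio of genes at 10 FPKM or more, Btk and Syk also passed the cut-off, beside 26.9% of all genes lower and 8.51% higher. When they were rescaled to the same FPKM sum, Tec, at a log2 ratio of -0.95, no longer passed, so that 3 of 7 genes were lower beside 20.9% of all genes lower and 15.1% higher. With a floor of 1 FPKM in both libraries 3 of 6 genes were lower, beside 19.3% of all genes. The median log2 ratio of the 7 genes was -1.06, against -0.04 for the 10974 genes that averaged 1 FPKM or more. The values closest to the cut-off were those of Tec, just past it at a ratio of 0.479, and of Syk, just short of it at a ratio of 0.516. The counting intervals of both, from 0.437 to 0.526 for Tec and from 0.470 to 0.568 for Syk, included the cut-off, so these libraries do not place either gene clearly on one side of it.

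**Figure D1:**
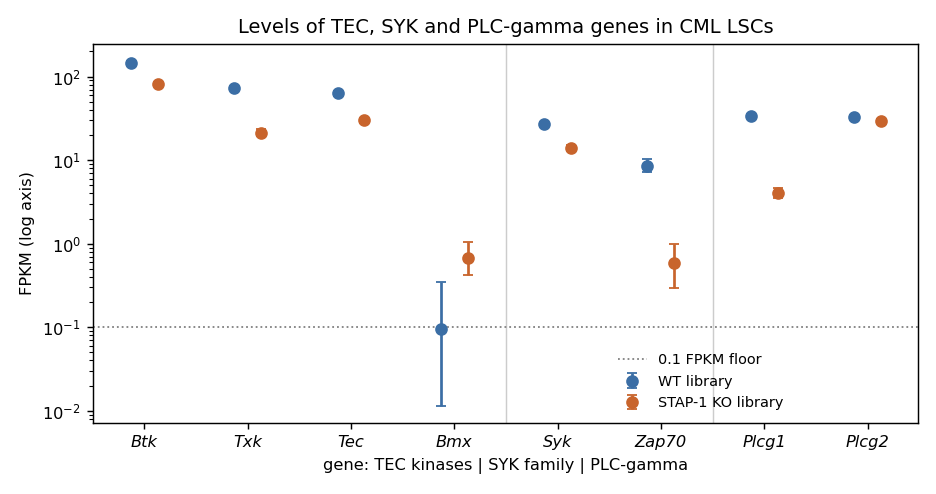
Levels of the 8 genes in FPKM on a log axis, for the WT library (blue) and the STAP-1 KO library (orange), with 95% counting intervals from estimated reads. Btk was the highest in both libraries, the points of Plcg2 nearly coincide, and the widest intervals are those of Bmx and Zap70.

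Among the 4 TEC kinase genes, Btk was the most abundant in both libraries. It had 147 FPKM in WT LSCs against 82.5 FPKM in STAP-1 KO LSCs. The ratio was 1.78-fold (interval from 1.68 to 1.89), below the cut-off, with about 2572 and 2012 estimated reads. After adjustment for length and GC content the log2 ratio went from -0.83 to -1.03, just past the cut-off. Btk stood at the 97.1 percentile of all listed genes in WT and at the 93.3 percentile in STAP-1 KO LSCs.

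Tec, the kinase that phosphorylates STAP-1, had 62.95 FPKM in WT LSCs against 30.2 FPKM in STAP-1 KO LSCs. It was thus 2.09-fold lower (interval from 1.90 to 2.29), on about 1156 and 774 estimated reads. The adjusted log2 ratio was -1.25, beside -1.06 before. Tec was therefore still detected well in the cells without STAP-1, at the 84.6 percentile of all genes, against the 92.0 percentile in the WT library. Its level in the WT library was close to that of Stap1 itself, at 61.95 FPKM.

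Txk, the kinase without a pleckstrin homology domain, had 73.9 FPKM in WT LSCs against 21.4 FPKM in STAP-1 KO LSCs. It was 3.46-fold lower (interval from 3.10 to 3.85), more than its neighbor Tec, and it was above Tec in the WT library but below it in STAP-1 KO LSCs. The ratio of Tec to Txk was 0.851 in WT and 1.41 in STAP-1 KO LSCs, a change of 1.66-fold (interval from 1.44 to 1.91). Such a ratio within a library does not depend on how the libraries were scaled. The log2 ratio of Txk between the libraries was -1.79, and -2.14 after adjustment.

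Bmx was the rarest of these TEC kinase genes and the only one of the 8 genes with a higher value in the STAP-1 KO library. It had 0.0954 FPKM in WT LSCs against 0.683 FPKM in STAP-1 KO LSCs. With a transcript of 3005 bases these values correspond to 2 and 20 reads, and the ratio of 7.16 has an interval from 1.74 to 63.2. Because the WT value was under the floor, Bmx was not counted as changed, and in both libraries it was a minor part of the summed FPKM of Tec, Btk, Bmx and Txk, with 0.0336% in WT and 0.507% in STAP-1 KO LSCs.

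Over Tec, Btk, Bmx and Txk, the summed level was 284 FPKM in WT LSCs against 135 FPKM in STAP-1 KO LSCs, a 2.11-fold difference. Btk accounted for 51.8% of the sum in WT and 61.2% in STAP-1 KO LSCs. The share of Tec was 22.2% and 22.4%, whereas the share of Txk was 26.0% and 15.9%. The ratio of Btk to Tec was 2.34 in WT and 2.73 in STAP-1 KO LSCs, a change of 1.17-fold (interval from 1.05 to 1.30) that is small beside the changes of the other paralog pairs.

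**Figure D2:**
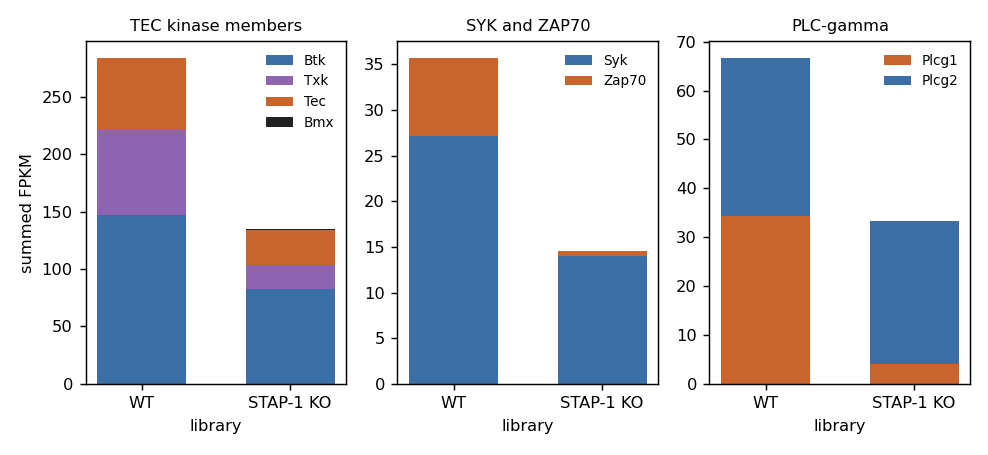
Summed FPKM of Tec, Btk, Bmx and Txk (left), of Syk and Zap70 (middle) and of Plcg1 and Plcg2 (right) in each library, stacked by gene, with each vertical axis starting at 0. The sums were from 2.01-fold to 2.45-fold lower in STAP-1 KO LSCs, while Zap70 fell from 24.0% to 3.98% and Plcg1 from 51.3% to 12.1% of its family.

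Within the SYK family, Syk was the main gene in both libraries, as is usual for myeloid cells. It had 27.1 FPKM in WT LSCs against 14.02 FPKM in STAP-1 KO LSCs, a 1.94-fold difference (interval from 1.76 to 2.13) on about 1051 and 757 estimated reads. Long transcripts had lower ratios in general, and the longest coding Syk transcript has 5363 bases. After this adjustment the log2 ratio of Syk went from -0.95 to -0.19.

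Zap70 had 8.59 FPKM in WT LSCs against 0.581 FPKM in STAP-1 KO LSCs. It was 14.8-fold lower (interval from 8.44 to 30.3), the largest fall among the 8 genes, on about 131 and 12 estimated reads. This interval overlapped that of Plcg1 (from 7.35 to 9.93). With a pseudocount of 1 FPKM the order turned, with log2 ratios of -2.60 for Zap70 and -2.81 for Plcg1. The adjusted log2 ratio of Zap70, -3.59, was close to the unadjusted one of -3.67. The ratio of Syk to Zap70 was 3.16 in WT LSCs (interval from 2.64 to 3.79) and 24.1 in STAP-1 KO LSCs (interval from 13.8 to 42.3). With adjustment for length and GC content, the log2 change of this ratio went from 2.93 to 3.40. Among T cell markers, Cd3d, Cd3e and Cd3g are given above, Cd247 had 1.08 and 1.87 FPKM, Cd2 0.285 and 1.94 FPKM, Bcl11b 0.536 and 0.471 FPKM, and the SRC family kinase gene Lck, which acts with ZAP-70 in T cells, had 11.8 and 41.9 FPKM. Of 2 NK cell markers that averaged 1 FPKM or more, Gzmb is given above and Gzma had 21.1 and 8.70 FPKM, and both were lower. Of the less abundant ones, Prf1 had 1.30 and 0.621 FPKM, Klrd1 1.01 and 0.871 FPKM, Klrb1c 0.718 and 0.0790 FPKM and Ncr1 0.319 and 0.0761 FPKM, and Klre1 was listed at 0 FPKM in both libraries. The part of any such cells in the Zap70 values was not tested.

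The phospholipase C-gamma genes diverged. Plcg1 had 34.2 FPKM in WT LSCs against 4.02 FPKM in STAP-1 KO LSCs, so that it was 8.51-fold lower (interval from 7.35 to 9.93), on about 1259 and 206 estimated reads. Its log2 ratio was -3.06, and -2.28 after adjustment. Plcg2, which in hematopoietic cells is the partner of BTK, had 32.5 FPKM in WT LSCs against 29.2 FPKM in STAP-1 KO LSCs. Its difference was 1.11-fold (interval from 1.02 to 1.21), and its log2 ratio of -0.15 became 0.26 after adjustment for length and GC content. Plcg2 was the member with the smallest difference before adjustment, whereas after adjustment that was Syk, at -0.19. Plcg2 was the only member whose direction was not the same under all settings.

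In the WT library both phospholipase genes did not differ beyond counting error, with a ratio of Plcg2 to Plcg1 of 0.949 (interval from 0.873 to 1.03). In STAP-1 KO LSCs it was 7.26 (interval from 6.27 to 8.42). The ratio thus changed by 7.66-fold (interval from 6.47 to 9.07). The transcripts of both genes are long, with 5107 bases for Plcg1 and 4298 bases for Plcg2, and the genes of like length had median log2 ratios of -0.67 and -0.31. After this adjustment, the log2 difference between both ratios went from 2.94 to 2.55. The summed FPKM of both genes was 66.7 in WT and 33.2 in STAP-1 KO LSCs.

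**Figure D3:**
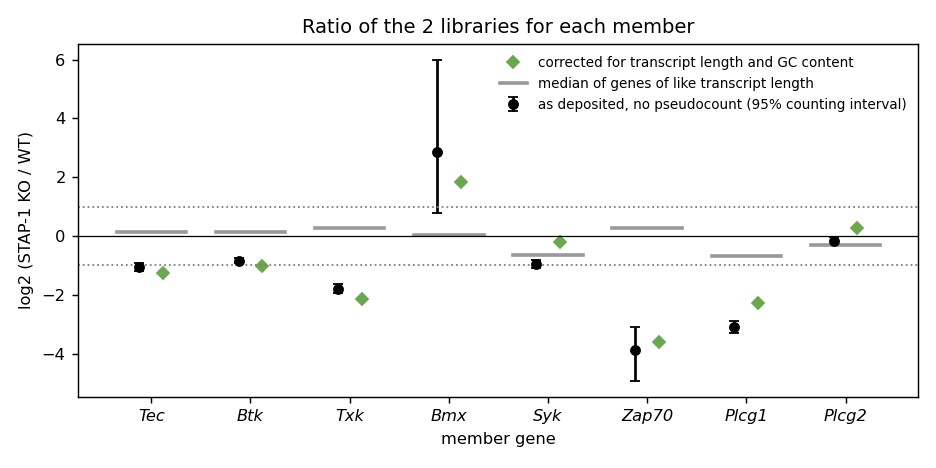
Log2 ratio of STAP-1 KO to WT for each member, without a pseudocount and with 95% counting intervals (black), after adjustment for length and GC content (green diamonds), and the median of genes of like transcript length (grey bars). Dotted lines mark the 2-fold cut-off. The adjustment moves Syk towards 0, Plcg2 to above 0 and Btk just past the lower line, and leaves Zap70, Plcg1, Txk and Tec beyond that line.

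The order of levels, in unadjusted FPKM of transcripts of unlike length, changed with these differences. In the WT library it was Btk, Txk, Tec, Plcg1, Plcg2, Syk, Zap70 and Bmx, with Plcg1 and Plcg2 not distinguishable by their counting intervals. In the STAP-1 KO library it was Btk, Tec, Plcg2, Txk, Syk, Plcg1, Bmx and Zap70. In that library the interval of Tec (from 28.1 to 32.4 FPKM) overlapped that of Plcg2 (from 27.6 to 30.9 FPKM), and the interval of Bmx (from 0.417 to 1.06 FPKM) overlapped that of Zap70 (from 0.291 to 0.984 FPKM).

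The steps before SYK were described with gene lists, in which genes that averaged 1 FPKM or more were counted at the 2-fold cut-off. Among all 10974 genes at that level, 22.6% were lower and 11.8% were higher. After adjustment for length and GC content these shares were 17.3% and 9.98%, and the adjusted counts of the lists below are to be read against them. The lists were small, were chosen with earlier results known and have no test. Of 14 genes on a list of immune receptor subunits, not all of which recruit SYK, 8 were lower and 3 were higher, with a median log2 ratio of -1.06. The higher ones were Cd79b and Cd3g, given above, and Clec4e, with 7.10 FPKM in WT LSCs against 52.3 FPKM in STAP-1 KO LSCs. Fcer1a, the IgE-binding chain of the mast cell receptor, had 1828 FPKM in WT LSCs against 218 FPKM in STAP-1 KO LSCs. The signaling chain genes Fcer1g and Tyrobp, whose proteins recruit SYK, had 1472 and 354 FPKM and 992 and 238 FPKM, in the same order. Itgb2, an integrin chain, had 175 and 34.2 FPKM, and Fcgr3, an IgG receptor, had 122 and 59.2 FPKM. Fcer1a and Ms4a2, both lower, are also among the mast cell markers above, and without them 6 of 12 receptor subunits were lower, with a median of -0.61. After adjustment 8 of the 14 were lower, with a median of -1.41.

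Of 6 SRC family kinase genes, 4 were lower and 1 was higher, with a median log2 ratio of -0.98, and after adjustment 3 were lower. At a mean of 5 FPKM or more, which leaves out Src and Fgr, 2 of 4 were lower and 1 was higher. The median log2 ratio was then -0.17. Lyn, the kinase that starts signaling from the IgE receptor, had 78.7 FPKM in WT LSCs against 38.4 FPKM in STAP-1 KO LSCs. Src had 2.37 and 0.130 FPKM. Lck was the gene that was higher, and Fyn, which is used by both T cells and mast cells, had 13.3 and 21.7 FPKM, within the cut-off.

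Among the adapters that gather SYK, TEC kinases and phospholipase C-gamma, 6 of 19 were lower and 2 were higher, with a median log2 ratio of -0.48. This list holds Stap1 itself, which the genotype fixed, and without it 5 of 18 (27.8%) were lower, with a median of -0.34. After adjustment 8 of the 19, with Stap1, were lower and 3 were higher. Lat2 and Lcp2 (SLP-76), which recruit phospholipase C-gamma, had 503 and 99.4 FPKM and 211 and 56.9 FPKM. Lat had 169 and 86.7 FPKM and Grb2 86.0 and 52.3 FPKM, both within the cut-off before adjustment, and Dapp1, which like the TEC kinases binds PIP3, had 145 and 140 FPKM. The counting interval of the fold of Lat (from 1.80 to 2.13) included the cut-off, and its adjusted log2 ratio of -1.13 was past it. The B cell adapter gene Blnk was listed at 0 FPKM in WT and at 0.253 FPKM in STAP-1 KO LSCs. Stap2, the paralog of Stap1, had 2.60 and 4.91 FPKM.

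Of 11 genes that set the level of PIP3, the lipid bound by TEC kinases, 7 were lower and 0 were higher, with a median log2 ratio of -1.09. The catalytic subunit genes Pik3cd and Pik3cg had 129 and 31.8 FPKM and 47.5 and 8.96 FPKM. The phosphatase gene Inpp5d (SHIP1), whose protein removes PIP3, had 112 and 16.4 FPKM, while Pik3r2 had 19.4 and 15.5 FPKM. Genes that make PIP3 and a gene that removes it were thus both lower. After adjustment for length and GC content the median of this list was -0.24 and 4 of the 11 genes were lower, with Pik3cd, Pik3cg and Inpp5d still at -1.03, -1.87 and -1.90.

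Of 17 brakes on these kinases, 6 were lower and 2 were higher, with a median log2 ratio of -0.51. After adjustment the median was -0.20, with 5 lower and 2 higher. Ubash3b and Ibtk then came inside the cut-off, and Ptpn2 went past it at -1.38. Ptpn6 (SHP-1), which dephosphorylates SYK substrates, had 148 FPKM in WT LSCs against 168 FPKM in STAP-1 KO LSCs. Ptpn2 had 242 and 128 FPKM, Dok2 52.9 and 80.3 FPKM and Csk, which restrains SRC kinases, 46.3 and 32.4 FPKM, all within the cut-off before adjustment. Sla, an adapter that lowers receptor signaling, had 157 and 59.3 FPKM.

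Downstream of phospholipase C-gamma, both branches were described. Of 19 genes of the diacylglycerol branch, 12 were lower and 3 were higher, with a median log2 ratio of -1.24. After adjustment 9 were lower and 3 higher, with a median of -0.81, and Prkd3, Rasgrp1 and Dgkz came inside the cut-off. The protein kinase C genes Prkcd, Prkcq and Prkcb had 152 and 56.0 FPKM, 83.8 and 20.7 FPKM, and 80.3 and 5.16 FPKM, so that Prkcb was 15.6-fold lower. Dgkz, which consumes diacylglycerol, had 41.4 and 20.3 FPKM, and Bcl10, a link to NF-κB, had 47.4 and 52.3 FPKM.

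Of 20 genes of the calcium branch, 8 were lower and 0 were higher, with a median log2 ratio of -0.84. After adjustment 5 were lower, with a median of -0.59. Nfatc1, a transcription factor that calcineurin activates, was lower, with 54.9 and 14.8 FPKM. The calmodulin genes Calm2 and Calm3 had 548 and 751 FPKM and 54.2 and 53.8 FPKM, and the calcineurin genes Ppp3r1 and Ppp3ca had 80.1 and 83.1 FPKM and 46.4 and 24.2 FPKM, all within the cut-off. Reads of calmodulin genes can be shared with processed copies, so their values are less certain. The IP3 receptor genes, which were chosen after their values were seen, were lower, with Itpr2 at 23.5 and 2.34 FPKM, Itpr1 at 6.94 and 1.74 FPKM and Itpr3 at 5.66 and 0.283 FPKM. These receptors open in response to the IP3 that phospholipase C-gamma makes. Their transcripts are long, and the adjusted log2 ratios were -2.27 for Itpr2, -0.93 for Itpr1 and -2.59 for Itpr3.

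**Figure D4:**
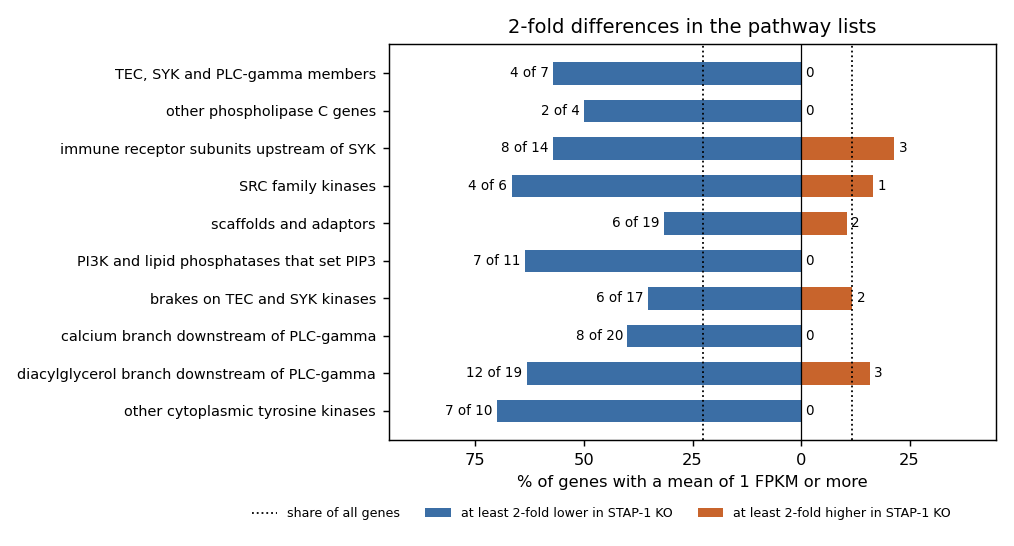
Share of genes averaging 1 FPKM or more that were at least 2-fold lower (blue, to the left) or higher (orange, to the right) in the STAP-1 KO library, for the 8 genes and each pathway list, with the gene counts printed at the bars. Dotted lines mark the shares among all genes, 22.6% lower and 11.8% higher, and before adjustment the lower share of every list shown lies beyond its line.

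Related families were set beside the members. Of the 13 other phospholipase C genes, 4 had a mean of at least 1 FPKM. Plcb2 (11.9 and 5.15 FPKM) and Plcb3 (9.50 and 4.48 FPKM) were lower, and Plcl2 (31.5 and 16.3 FPKM) and Plcb4 (3.71 and 1.95 FPKM) were within the cut-off. After adjustment 0 of the 4 were past it, with log2 ratios of -0.42 for Plcb2 and -0.44 for Plcb3. Plcd3, at 0.189 and 1.22 FPKM, was below the mean of 1 FPKM. Plcg1 and Plcg2 were therefore above the other catalytic isoforms in WT LSCs. In STAP-1 KO LSCs the counting intervals of Plcb2 (from 4.55 to 5.80 FPKM) and Plcb3 (from 3.87 to 5.17 FPKM) overlapped that of Plcg1 (from 3.49 to 4.60 FPKM). Such overlap does not show that these levels were equal, and Plcg2, at 29.2 FPKM, stayed above Plcb2 and Plcb3. The log2 ratio of -3.06 of Plcg1 was lower than those of Plcb2, Plcb3, Plcb4 and Plcl2, which lay between -1.19 and -0.90, and that of Plcg2 was higher than all of them.

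Of 10 other cytoplasmic tyrosine kinase genes, 7 were lower and 0 were higher, with a median log2 ratio of -1.55. After adjustment 4 were lower, with a median of -0.91, beside 5 of 7 and -1.25 for the TEC, SYK and phospholipase C-gamma genes, and Abl1, Tyk2 and Tnk2 came inside the cut-off. Jak1 had 181 and 54.0 FPKM, Jak2 48.2 and 13.1 FPKM and Ptk2b 40.8 and 12.6 FPKM, while Matk (52.3 and 27.1 FPKM) and Fes (17.3 and 25.6 FPKM) were within the cut-off. Whether the TEC and SYK kinases differ from these genes was not tested.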

How the data were processed

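The authors sorted the cells, sequenced single reads of 75 bases and mapped them to mm10. The submitters' processing notes name TopHat2 2.0.13, Bowtie2 2.2.3, SAMtools 0.1.19 and Cufflinks 2.2.1. The deposited values are FPKM per gene symbol, made by the authors with Cuffnorm, and the gene annotation, library scaling, strandedness and read totals were not given in the sources used here.

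From these values, ratios, ranks and sums were computed in Python 3.11.15 (pandas 2.3.3, numpy 2.4.6, scipy 1.17.1), with plots by matplotlib 3.10.9. The cut-off was a 2-fold difference in either direction among genes at 0.1 FPKM or more in each library, and log2 ratios used a pseudocount of 0.1 FPKM. Symbols were matched to GENCODE M21 (GRCm38), 20911 as written and 1913 through an older symbol, while 460 were not matched. Depth was fitted to low FPKM values of genes with 1 transcript. Of these, 51.1% in the WT and 54.8% in the STAP-1 KO library fell within 0.02 reads of a whole read. By chance 4% would do so at a depth fixed in advance. The depth was chosen to favor such values, so the comparison is no test of the fit. A count of 3 reads on 2000 bases corresponds to 0.224 FPKM for WT and 0.160 FPKM for STAP-1 KO LSCs. Intervals of single genes are exact (Poisson, or binomial for a ratio), and those of ratios between genes use a normal approximation on the log scale. The adjustment subtracted the median log2 ratio of 20 bins of transcript length and then of 20 bins of GC content. The scripts were tested on simulated data.

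Named genes were the 8 members, Stap1, Stap2, the sorting antigens and the 5 genes of each pathway list with the highest mean FPKM, of which some are not reported here. Others, such as Blnk, Zhx3, Nfatc1, the IP3 receptor genes and single cell type markers, were chosen after their values were seen. The members and lists were chosen with earlier results of these data known. Alternatives covered the floor, fold cut-off, pseudocount, scaling and adjustment.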

Additional observations from a re-analysis of the deposited data

How the results depend on the processing

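With 1 library per genotype, the results below are values without a test. The log2 ratios of 7 of the 8 genes kept their sign under all alternatives, the exception being Plcg2. Rescaling by the median ratio of genes at 10 FPKM or more shifted the median of all genes from -0.04 to -0.22 and gave log2 ratios of -1.24 for Tec, -1.01 for Btk, -1.96 for Txk, -1.13 for Syk and -0.33 for Plcg2. Under this scaling 6 of 7 genes were at least 2-fold lower, beside 26.9% of all genes lower and 8.51% higher. Rescaling to the same FPKM sum gave -0.73 for Btk, with 3 genes lower beside 20.9% of all genes lower and 15.1% higher, and Tec, at -0.95, came inside the cut-off. Adjustment for the length and GC content of the transcript gave -1.25 for Tec, -1.03 for Btk, -2.14 for Txk, -0.19 for Syk, -2.28 for Plcg1 and 0.26 for Plcg2, with 5 genes lower beside 17.1% of all genes. A pseudocount of 1 FPKM gave -2.60 for Zap70 and -2.81 for Plcg1, as it pulls low values together. With a 4-fold cut-off 2 of 7 genes were lower, Zap70 and Plcg1, beside 8.56% of all genes. Without the floor 1 of 8 genes, Bmx, was higher, beside 17.5% of all genes. The other 34 alternative log2 ratios lay within the width of the counting interval, set about the reported log2 ratio, and the other 14 alternative counts of members were within 1.5 times the reported ones. The shares of lower genes in the 9 pathway lists stayed within their 95% binomial (Wilson) intervals at a mean of 5 FPKM or more. These intervals are wide, as the lists are small, so staying within them does not show that a share was stable. Alternatives chosen after seeing the data were the adjustment of the lists, under which 0% of the other phospholipase C genes were lower, and leaving out Stap1 or the mast cell markers. The other lists stayed within those intervals, but several shares moved much. After adjustment the share of lower genes went from 70% to 40% for the other cytoplasmic tyrosine kinases. It went from 63.6% to 36.4% for the genes that set PIP3, and rose from 31.6% to 42.1% for the adapters. No paired analysis was possible because each genotype has 1 library. Depth limited Bmx and, in the STAP-1 KO library, Zap70.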

Other observations

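Tec and Txk share chromosome 5 with the disrupted gene. Between Tec and Stap1, 53 genes were listed and 31 had a mean of at least 1 FPKM. Of these, 6 (19.4%) were at least 2-fold lower in STAP-1 KO LSCs and 4 were higher, beside 22.6% lower and 11.8% higher among all genes at that level, with a median log2 ratio of 0.05. The lower genes were Kit, Spink2 (101 and 4.26 FPKM in WT and STAP-1 KO LSCs), Fryl (6.73 and 1.24 FPKM), Clock (2.83 and 0.276 FPKM), C530008M17Rik (5.64 and 1.57 FPKM) and Hopx (14.9 and 5.54 FPKM). The higher genes were Paics (132 and 281 FPKM), Igfbp7 (8.38 and 24.8 FPKM), Ociad2 (3.48 and 8.05 FPKM) and 2700023E23Rik (3.06 and 6.46 FPKM). Some no longer passed the cut-off after adjustment for length and GC content. These were C530008M17Rik (log2 ratio of -0.67), Paics (0.79), Ociad2 (0.996) and 2700023E23Rik (0.70), while Igfbp7 stayed higher at 1.39.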
